A study of Mus musculus with 12 samples.

Results

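Neural stem cells and radial glia share a set of genes that mark them in the embryonic and adult brain, and 10 of these genes were examined by name: Prom1, Pax6, Thbs4, Egfr, Fabp7, Nr2e1, Hopx, Lpar1, Tfap2c and Sox9. Of the 10 genes, 9 had rows among the 17990 genes of the deposited tables and are described here, whereas Tfap2c was not analysed here. RNA came from 2 neurogenic regions of the mouse brain, the dentate gyrus (DG) and the subventricular zone (SVZ), as tissue that held neural stem and progenitor cells and their neighbours. The study asked how expression differs between mice in which Dpy30 is deleted and their controls. Dpy30 is a core subunit of the SET1/MLL complexes, which methylate lysine 4 of histone H3.

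The KO genotype was hGFAP/+;Dpy30F/- and the control genotype hGFAP/+;Dpy30F/+, so both carried hGFAP and a floxed Dpy30 allele and differed in the other allele. By its usual meaning hGFAP is a Cre transgene under the human GFAP promoter, which is active in radial glia, so that neurons, astrocytes and oligodendrocytes descended from them are also recombined. The labels do not spell this out, and the sources used here give no age of the mice. Each of the 4 groups (DG KO, DG control, SVZ KO, SVZ control) held 3 libraries, called a, b and c, names that pair nothing across groups. The labels do not tell whether libraries of 1 group are from different animals, and p-values here cover the spread between libraries, part of which may be technical.

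Radial glia are the elongated progenitors of the embryonic brain, and the neural stem cells of the adult DG and SVZ descend from them and keep many of their genes. Some of these genes act in the nucleus (Pax6, Nr2e1, Sox9, Hopx), some at the cell surface (Egfr, Lpar1, Prom1), and others bind lipids inside the cell (Fabp7) or lie in the matrix outside it (Thbs4). Most of them are also expressed outside stem cells: Sox9, Hopx and Fabp7 in astrocytes, Lpar1 in myelinating oligodendrocytes, and Prom1 and Sox9 in the ciliated ependymal cells that line the ventricles.

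Levels are in FPKM (fragments per kilobase of a transcript, relative to library size), as deposited by the authors with TMM scaling (trimmed mean of M-values) and summed here over the transcripts of a gene. In DG control libraries mean levels ran from 193 FPKM for Fabp7 and 29.6 FPKM for Hopx, through 4.29 for Sox9, 3.65 for Lpar1, 3.49 for Nr2e1 and 2.02 for both Prom1 and Pax6, to 1.50 for Egfr and 0.505 for Thbs4. In SVZ control libraries Fabp7 (91.1 FPKM) was again highest, followed by Hopx (15.6) and Lpar1 (14.1), whose ranges overlapped, then Sox9 (5.77), Prom1 (5.21), Nr2e1 (4.09), Pax6 (3.08), Thbs4 (2.41) and Egfr (1.71). Among neighbours in this order, the ranges of Sox9, Prom1 and Nr2e1 overlapped in the SVZ controls, as did those of Pax6, Thbs4 and Egfr. In the DG controls the ranges of Sox9, Lpar1 and Nr2e1 overlapped, as did those of Prom1, Pax6 and Egfr, while Thbs4 lay below the rest. Levels of the DG and the SVZ come from separately normalized tables and were not tested against each other.

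**Figure D1:**
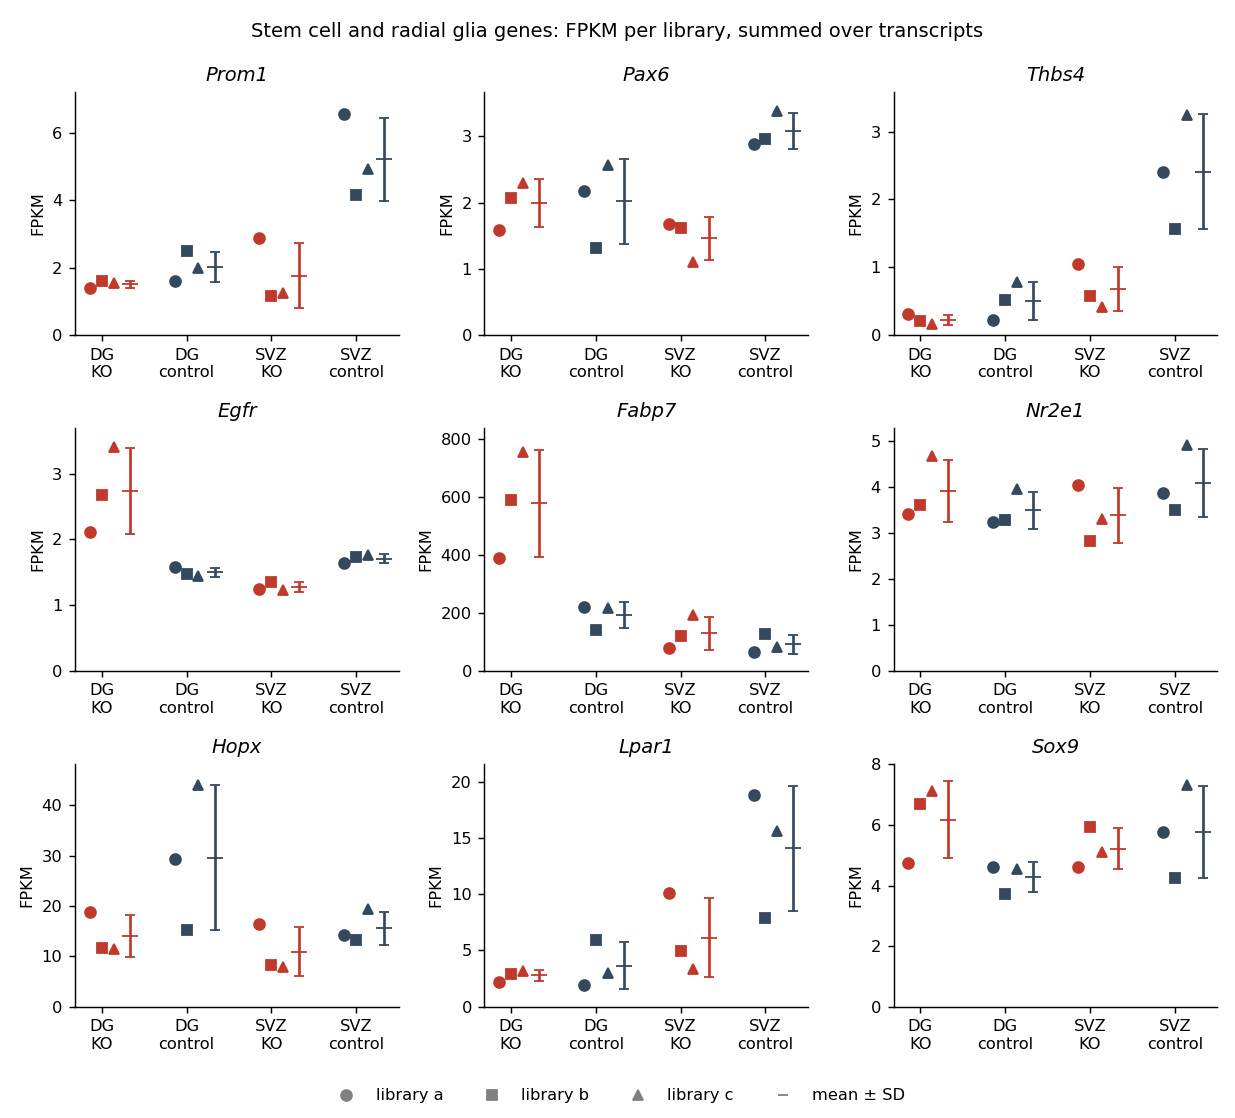
FPKM of the 9 genes, summed over transcripts, in every library. Each panel is 1 gene and each point 1 library (a circle, b square, c triangle), with KO left of control in each tissue, and bars give the mean and SD of 3 libraries. Egfr, Fabp7 and Sox9 lie higher in every DG KO library than in any DG control, and Prom1, Pax6, Thbs4 and Egfr lie lower in every SVZ KO library than in any SVZ control.

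The libraries differed in ways that bear on these genes. Dpy30 was at 5.68 to 6.89 FPKM in the DG KO libraries and at 8.38 to 10.12 FPKM in the DG controls. In the SVZ it was at 5.04 FPKM (KO b), 4.87 FPKM (KO c) and, in the library labelled KO a, 8.83 FPKM, against 7.73 to 9.43 FPKM in the controls. By its Dpy30 level that library goes against its label. As given below, its Pax6 and Egfr levels lay with the other KO libraries, while its myelin and astrocyte levels lay near the controls. SVZ results of the 9 genes are given with and without that library. Judged by expression of Xist, DG KO a, DG control c and SVZ control a were female and the other libraries male. The only female DG KO library was thus also the lowest of the DG KO libraries for Fabp7, Egfr and Sox9. Depth, inferred from the steps in low FPKM values, was 48.5 to 65.8 reads for each FPKM of a 1 kb transcript in the DG KO libraries and 26.7 to 42.2 in the DG controls, and 34.1 to 50.2 in the SVZ KO libraries and 37.0 to 46.0 in the SVZ controls. The 5 markers of dentate granule neurons summed to 20.7, 15.5 and 19.4 FPKM in the DG KO libraries and to 46.7, 25.6 and 40.5 FPKM in the DG controls, every KO library lower. Calb1 was the largest part of this sum in each library and the only marker of the 5 whose groups did not overlap. Plk5 differed by 0.04 on the log2 scale. The markers differed in which control was highest: Prox1 was at 1.19 to 1.93 FPKM in KO and at 2.30, 0.963 and 10.7 FPKM in control, and Calb1 at 11.1 to 16.4 FPKM in KO and at 34.6, 22.9 and 18.5 FPKM in control. Summed markers of striatal neurons, a type foreign to the dentate gyrus, were at 50.6, 308 and 636 FPKM in the DG KO libraries and at 64.0, 655 and 30.8 FPKM in the DG controls, high in KO b, KO c and control b.

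The DG comparison asked whether expression of stem cell and radial glia genes depends on genotype in the dentate gyrus. Fabp7, Egfr and Sox9 were higher in every KO library than in any control, whereas Hopx averaged 0.472 times its control level, with groups that overlapped. Of the 9 genes with rows, 8 passed the filter (6 libraries averaging 0.5 FPKM or more), and 0 of these 8 passed the limma test at an adjusted p of 0.05 (Benjamini-Hochberg over 15454 genes), a threshold that 0.699% of all genes tested passed. Of the 8 genes, 4 had an unadjusted limma p under 0.05 (Fabp7, Egfr, Sox9 and Hopx), as did 26.5% of all genes, and 3 had groups that did not overlap with KO higher, as did 25.9% of all genes. The genes tested were split evenly by sign, 4 positive and 4 negative, while 65.3% of all genes had a positive log2 fold change. Their median log2 fold change was 0.06, and that of all genes tested was 0.09. In such bulk tissue, fewer cells of a type and less RNA per cell cannot be told apart.

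Fabp7 (ENSMUSG00000019874.11, chromosome 10) encodes brain lipid-binding protein, a carrier of fatty acids that is a standard marker of radial glia. It was at 389, 592 and 758 FPKM in the DG KO libraries and at 220, 142 and 216 FPKM in the DG controls. The lowest KO library stood above the highest control. Mean levels were 579 ± 185 FPKM in KO and 193 ± 44.1 FPKM in control (SD, n = 3 each), a ratio of 3.01. On the log2 scale the difference was 1.56 (SE 0.28, limma adjusted p = 0.056). A two-sided exact permutation test gave 0.1, its lowest possible p with 3 libraries a group. The difference is larger than the spread between replicates but did not pass the threshold over all genes.

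Egfr (ENSMUSG00000020122.16, chromosome 11) encodes the epidermal growth factor receptor, a receptor tyrosine kinase found on activated stem cells and on the transit-amplifying cells they produce. Its levels were 2.12, 2.67 and 3.41 FPKM in the DG KO libraries, and 1.58, 1.47 and 1.45 FPKM in the DG controls. The controls lay close together and all KO libraries lay above them. The means were 2.74 ± 0.651 FPKM in KO and 1.50 ± 0.0690 FPKM in control (SD, n = 3 each), a ratio of 1.83. This was 0.57 on the log2 scale (SE 0.14, limma adjusted p = 0.076). In a single limma fit of all 4 groups, which pools the spread of both tissues, Egfr (adjusted p = 0.039) and Fabp7 (adjusted p = 0.048) passed the threshold with the same fold changes. More genes passed in that fit altogether: 296 of 14922 in the DG, against 108 of 15454 in the fit of the DG alone.

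Because Fabp7 and Egfr had the lowest p-values in the DG, the 300 bases around their RefSeq starts (250 before, 50 after, GRCm38.p6) are shown, 5′ to 3′ on the strand of the gene. Capitals mark matches on either strand to the TATA box TATAAA, the GC box GGGCGG, the CCAAT box CCAAT and the motif TGGGAA, a core of sites of RBPJ, the DNA-binding factor of Notch signalling. The Fabp7 window is chr10:57784673-57784972 (plus strand) and the Egfr window chr11:16751953-16752252 (plus strand).
Fabp7: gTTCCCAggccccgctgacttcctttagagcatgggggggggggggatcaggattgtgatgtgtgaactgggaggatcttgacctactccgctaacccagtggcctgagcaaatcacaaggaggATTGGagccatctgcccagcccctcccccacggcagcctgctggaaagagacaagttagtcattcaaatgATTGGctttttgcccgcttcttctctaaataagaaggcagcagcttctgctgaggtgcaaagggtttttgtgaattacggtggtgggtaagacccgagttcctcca
Egfr: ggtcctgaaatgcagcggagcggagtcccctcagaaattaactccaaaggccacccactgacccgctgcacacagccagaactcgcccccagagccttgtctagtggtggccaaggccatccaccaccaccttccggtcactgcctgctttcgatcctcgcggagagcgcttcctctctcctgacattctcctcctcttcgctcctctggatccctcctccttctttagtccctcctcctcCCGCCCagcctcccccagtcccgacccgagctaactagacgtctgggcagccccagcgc
The Fabp7 window held 2 matches to CCAAT, 1 to TGGGAA and none to TATAAA or GGGCGG. The Egfr window held 1 match to GGGCGG and none of the other capitalised motifs. Over the 32851 RefSeq windows of this length, CCAAT occurred in 37.4%, GGGCGG in 35.7%, TGGGAA in 25.6% and TATAAA in 13.6%. The observed over expected frequency of CpG was 0.28 in the Fabp7 window and 0.59 in the Egfr window, and its median over all windows was 0.38. These matches describe the letters and are no evidence of binding.

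Sox9 (ENSMUSG00000000567.5, chromosome 11) encodes an HMG-box transcription factor needed to form and keep neural stem cells. The DG KO libraries had 4.74, 6.70 and 7.11 FPKM, against 4.61, 3.72 and 4.54 FPKM in the DG controls. KO a exceeded the highest control only narrowly, while KO b and KO c lay well above it. Mean levels of 6.18 ± 1.27 FPKM in KO and 4.29 ± 0.494 FPKM in control (SD, n = 3 each) differed by 0.43 on the log2 scale (SE 0.15, limma adjusted p = 0.14). Hopx (ENSMUSG00000059325.14, chromosome 5) encodes an atypical homeodomain protein that does not bind DNA and marks quiescent stem cells of the mouse dentate gyrus. Its level was 18.7, 11.7 and 11.4 FPKM in the DG KO libraries, against 29.4, 15.3 and 44.0 FPKM in the DG controls. The groups overlapped because KO a lay above control b. Hopx differed by -0.95 on the log2 scale (SE 0.38, limma adjusted p = 0.17), and by -0.61 without control c.

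The remaining genes showed no separation of the DG groups. Pax6, a paired-box transcription factor that controls neurogenesis by radial glia, was at 1.59, 2.07 and 2.30 FPKM in KO and at 2.17, 1.32 and 2.57 FPKM in control. Nr2e1 encodes TLX, an orphan nuclear receptor required for self-renewal of adult neural stem cells, and was at 3.42, 3.60 and 4.67 FPKM in KO and at 3.23, 3.28 and 3.96 FPKM in control. Their log2 fold changes were -0.00 (SE 0.18) for Pax6 and 0.12 (SE 0.13) for Nr2e1. Prom1 (prominin-1, or CD133), a membrane glycoprotein of apical protrusions and cilia, was at 1.40, 1.60 and 1.53 FPKM in KO and at 1.59, 2.49 and 1.98 FPKM in control. KO b lay just above control a, and Prom1 differed by -0.26 on the log2 scale (SE 0.13, limma adjusted p = 0.24). Lpar1, a G protein-coupled receptor for lysophosphatidic acid that marks DG progenitors in the mouse, was at 2.21, 2.94 and 3.19 FPKM in KO and at 1.95, 5.95 and 3.03 FPKM in control. The log2 difference of -0.22 (SE 0.30, limma adjusted p = 0.68) rested on control b and became 0.12 without that library. Thbs4, a secreted thrombospondin of the extracellular matrix that astrocytes of the mouse SVZ make after injury, was below the filter and untested in the DG, with 0.303, 0.200 and 0.163 FPKM in KO and 0.222, 0.515 and 0.777 FPKM in control.

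Markers of some other cell types differed between the DG groups. The sums for microglia, neuroblasts, endothelial cells, fibroblasts and choroid plexus overlapped. All 5 fibroblast markers were positive, and 3 of them had groups that did not overlap with KO higher, against 25.9% of all genes. The summed level of 10 myelin genes was 132, 132 and 136 FPKM in the KO libraries and 246, 2420 and 728 FPKM in the controls, and Lpar1 was highest in the same library, control b. Of these myelin genes 9 were tested, and none passed the limma threshold. The 9 astrocyte markers summed to 344, 329 and 371 FPKM in KO and to 423, 516 and 538 FPKM in control. They did not move as 1 group: 4 of the 9 were positive, Aldoc fell (68.9, 75.1 and 81.8 FPKM in KO, 164, 189 and 205 FPKM in control, limma adjusted p = 0.028), and Aldh1l1 was higher in every KO library, at 0.56 on the log2 scale (limma adjusted p = 0.089). Mature neuron markers summed to 809, 602 and 544 FPKM in KO and to 947, 989 and 1010 FPKM in control, and all 6 were negative. Of these 6, Eno2 (limma adjusted p = 0.028) and Grin1 (limma adjusted p = 0.048) fell. Against 0.699% of all genes passing the threshold in either direction, 2 of 6 markers of oligodendrocyte precursors fell past it. These were Gpr17 (-1.94, limma adjusted p = 0.028) and C1ql1 (-0.52, limma adjusted p = 0.050 after rounding), while 3 of the 6 were positive. The 10 genes of dividing cells summed to 28.4, 39.2 and 43.7 FPKM in KO and to 22.4, 24.6 and 27.4 FPKM in control, every KO library higher. Pcna, at 17.4 to 17.8 FPKM in KO and 14.2 to 15.2 FPKM in control, was the largest part of these sums. All 9 of the genes tested were positive, against 65.3% of all genes. The groups did not overlap, with KO higher, for 3 of the 9, against 25.9% of all genes. The 8 ependymal markers summed to 11.2, 34.5 and 29.6 FPKM in KO and to 14.8, 8.10 and 7.19 FPKM in control, and KO b and KO c, the high libraries, also had the most Sox9, Egfr and Fabp7. None of the markers in these lists was at 0 in all 6 libraries. Their part in the results for Fabp7, Egfr, Sox9 and Hopx was not tested.

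The SVZ comparison asked the same question in the subventricular zone. Prom1, Pax6 and Thbs4 lay at 0.280 to 0.476 times their control mean, and together with Egfr they were lower in every KO library than in any control. With all 6 libraries 0 of the 9 genes passed the limma test, as did 0.00660% of all 15159 genes (1 gene), and 5 of the 9 (Prom1, Pax6, Thbs4, Lpar1 and Egfr) had an unadjusted limma p under 0.05, against 12.6% of all genes. Groups did not overlap, with KO lower, in 4 of the 9 genes and in 7.78% of all genes. Log2 fold changes were negative for 8 of the 9 genes, their median being -0.54, whereas 55.5% of all genes were positive and the median of all genes was 0.03. Without the library labelled KO a, 5 of the 9 genes (Prom1, Pax6, Thbs4, Hopx and Lpar1) fell past the limma threshold, against 4.48% of all genes in that direction, and 0 rose, against 4.21%.

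**Figure D2:**
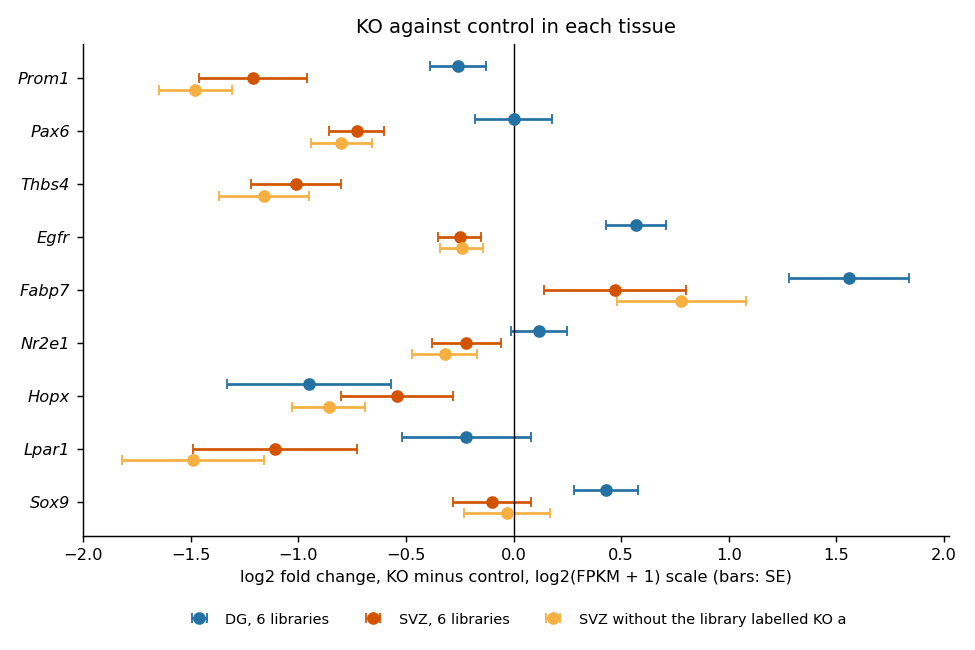
Log2 fold change of each gene, KO minus control, on the log2(FPKM + 1) scale, in the DG (blue), in the SVZ with all libraries (dark orange) and in the SVZ without the library labelled KO a (light orange). Bars are the SE from limma, and Thbs4 was too low to be tested in the DG. Fabp7 stands furthest right in both tissues, and Prom1 and Lpar1 stand furthest left in the SVZ.

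Prom1 (ENSMUSG00000029086.15, chromosome 5) was at 2.88, 1.16 and 1.25 FPKM in the SVZ KO libraries and at 6.57, 4.14 and 4.93 FPKM in the SVZ controls. KO a lay between the other KO libraries and the controls. Mean levels were 1.76 ± 0.969 FPKM in KO and 5.21 ± 1.24 FPKM in control (SD, n = 3 each), a ratio of 0.338. On the log2 scale Prom1 differed by -1.21 with all libraries (SE 0.25, limma adjusted p = 0.37), and without KO a it fell by 1.48 (SE 0.17, limma adjusted p = 0.0067). Thbs4 (ENSMUSG00000021702.7, chromosome 13) was at 1.04, 0.569 and 0.418 FPKM in the SVZ KO libraries and at 2.41, 1.56 and 3.25 FPKM in the SVZ controls. Every KO library lay below every control, on about 67 to 113 reads in KO and 185 to 477 reads in control. The log2 difference was -1.01 (SE 0.21, limma adjusted p = 0.37), and without KO a Thbs4 fell by 1.16 (SE 0.21, limma adjusted p = 0.023).

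The RefSeq windows of Prom1, chr5:44101687-44101986, and Thbs4, chr13:92794769-92795068, both on the minus strand, are shown because these genes had the largest ratios between groups among those that did not overlap in the SVZ. Capitals have the same meaning as for Fabp7 and Egfr.
Prom1: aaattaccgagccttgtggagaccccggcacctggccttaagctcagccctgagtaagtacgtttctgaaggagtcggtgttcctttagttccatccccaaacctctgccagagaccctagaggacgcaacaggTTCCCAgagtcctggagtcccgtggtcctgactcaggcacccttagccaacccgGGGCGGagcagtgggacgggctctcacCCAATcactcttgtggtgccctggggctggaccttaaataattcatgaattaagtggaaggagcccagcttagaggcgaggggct
Thbs4: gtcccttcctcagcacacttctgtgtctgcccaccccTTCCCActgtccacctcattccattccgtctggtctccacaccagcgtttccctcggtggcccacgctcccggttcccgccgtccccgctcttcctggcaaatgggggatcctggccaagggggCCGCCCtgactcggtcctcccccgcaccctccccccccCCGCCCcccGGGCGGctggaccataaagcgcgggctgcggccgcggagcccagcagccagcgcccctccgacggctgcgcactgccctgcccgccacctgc
The Prom1 window held 1 GC box, 1 CCAAT box and 1 match to TGGGAA, and the Thbs4 window held 3 GC boxes and 1 match to TGGGAA. None of the windows of the 8 genes found in the RefSeq table held TATAAA. The observed over expected frequency of CpG was 0.41 for Prom1 and 0.69 for Thbs4.

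Pax6 (ENSMUSG00000027168.21, chromosome 2) had 1.67, 1.62 and 1.10 FPKM in the SVZ KO libraries, against 2.88, 2.96 and 3.38 FPKM in the SVZ controls. Here KO a lay with the other KO libraries, and the groups were well apart. The means were 1.46 ± 0.319 FPKM in KO and 3.08 ± 0.268 FPKM in control (SD, n = 3 each), and on the log2 scale Pax6 differed by -0.73 (SE 0.13, limma adjusted p = 0.37), or -0.80 (SE 0.14, limma adjusted p = 0.020) without KO a. Egfr was at 1.24, 1.36 and 1.23 FPKM in the SVZ KO libraries and at 1.64, 1.74 and 1.76 FPKM in the SVZ controls, and KO a was again like the other KO libraries. The gap was small beside that of Pax6, at -0.25 on the log2 scale (SE 0.10), with a limma adjusted p of 0.38, or 0.19 without KO a. Two-sided exact permutation tests gave 0.1 for each of Prom1, Thbs4, Pax6 and Egfr, the lowest p this design can reach.

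Lpar1 (ENSMUSG00000038668.14, chromosome 4) was at 10.1, 4.95 and 3.38 FPKM in the SVZ KO libraries and at 18.8, 7.92 and 15.6 FPKM in the SVZ controls. KO a exceeded control b, and the other KO libraries lay below all controls. On the log2 scale Lpar1 differed by -1.11 with all libraries (SE 0.38, limma adjusted p = 0.37), and without KO a it fell by 1.49 (SE 0.33, limma adjusted p = 0.040). Hopx was at 16.4, 8.27 and 7.89 FPKM in the SVZ KO libraries and at 14.3, 13.2 and 19.4 FPKM in the SVZ controls. KO a exceeded controls a and b, while KO b and KO c lay below all controls. The log2 difference was -0.54 (SE 0.26, limma adjusted p = 0.42), and without KO a Hopx fell by 0.86 (SE 0.17, limma adjusted p = 0.028).

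Fabp7 was the only gene of the 9 with a positive log2 fold change in the SVZ. It was at 78.8, 119 and 192 FPKM in KO and at 64.6, 126 and 83.1 FPKM in control, and the groups overlapped. Fabp7 differed by 0.47 on the log2 scale with all libraries (SE 0.33, limma adjusted p = 0.56) and by 0.78 without KO a (SE 0.30, limma adjusted p = 0.16). It depended on single libraries, at 0.14 without KO c and 0.25 without control a. Nr2e1 was at 4.03, 2.83 and 3.30 FPKM in the SVZ KO libraries and at 3.86, 3.50 and 4.92 FPKM in the SVZ controls, and Sox9 at 4.61, 5.95 and 5.11 FPKM in KO and at 5.77, 4.24 and 7.31 FPKM in control. Neither gene separated the groups, and the limma adjusted p was 0.56 for Nr2e1 and 0.83 for Sox9. Without KO a, Nr2e1 differed by -0.32 (limma adjusted p = 0.22) and Sox9 by -0.03 (limma adjusted p = 0.94).

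The 5 calls made without KO a rest on 2 KO libraries. Leaving out KO b as well left 0 genes past the limma threshold, and leaving out KO c as well left 1 (Prom1), in fits where the lone KO library is assumed to vary like the controls. Leaving out control c as well left 3 genes, and leaving out control a as well left 4. Summed myelin genes moved in the same direction as these genes, at 3910, 271 and 208 FPKM in the SVZ KO libraries and at 5970, 3000 and 5370 FPKM in the SVZ controls. All 10 of them fell past the limma threshold without KO a, against 4.48% of all genes. The 9 astrocyte markers summed to 721, 445 and 483 FPKM in KO and to 888, 757 and 998 FPKM in control, and 4 of the 9 fell without KO a. The 8 microglia markers summed to 142, 107 and 112 FPKM in KO and to 183, 150 and 197 FPKM in control, and 5 of the 8 fell without KO a. The 7 striatal markers with rows summed to 400, 348 and 358 FPKM in KO and to 450, 439 and 588 FPKM in control, and 5 of the 7 fell without KO a. Markers of fibroblasts summed to 8.96 to 13.0 FPKM in KO and to 13.9 to 19.8 FPKM in control, and 0 of the 4 tested passed. KO a had myelin and astrocyte levels near those of the controls and more Lpar1, Hopx, Prom1 and Thbs4 than the other KO libraries. The part of these cell types in the falls of Prom1, Pax6, Thbs4, Hopx and Lpar1 was not tested. The 8 ependymal markers summed to 7.43, 8.17 and 6.59 FPKM in KO and to 12.8, 7.16 and 13.7 FPKM in control, with overlapping groups. The 10 genes of dividing cells summed to 18.6, 28.1 and 26.4 FPKM in KO and to 17.8, 21.6 and 21.4 FPKM in control.

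**Figure D3:**
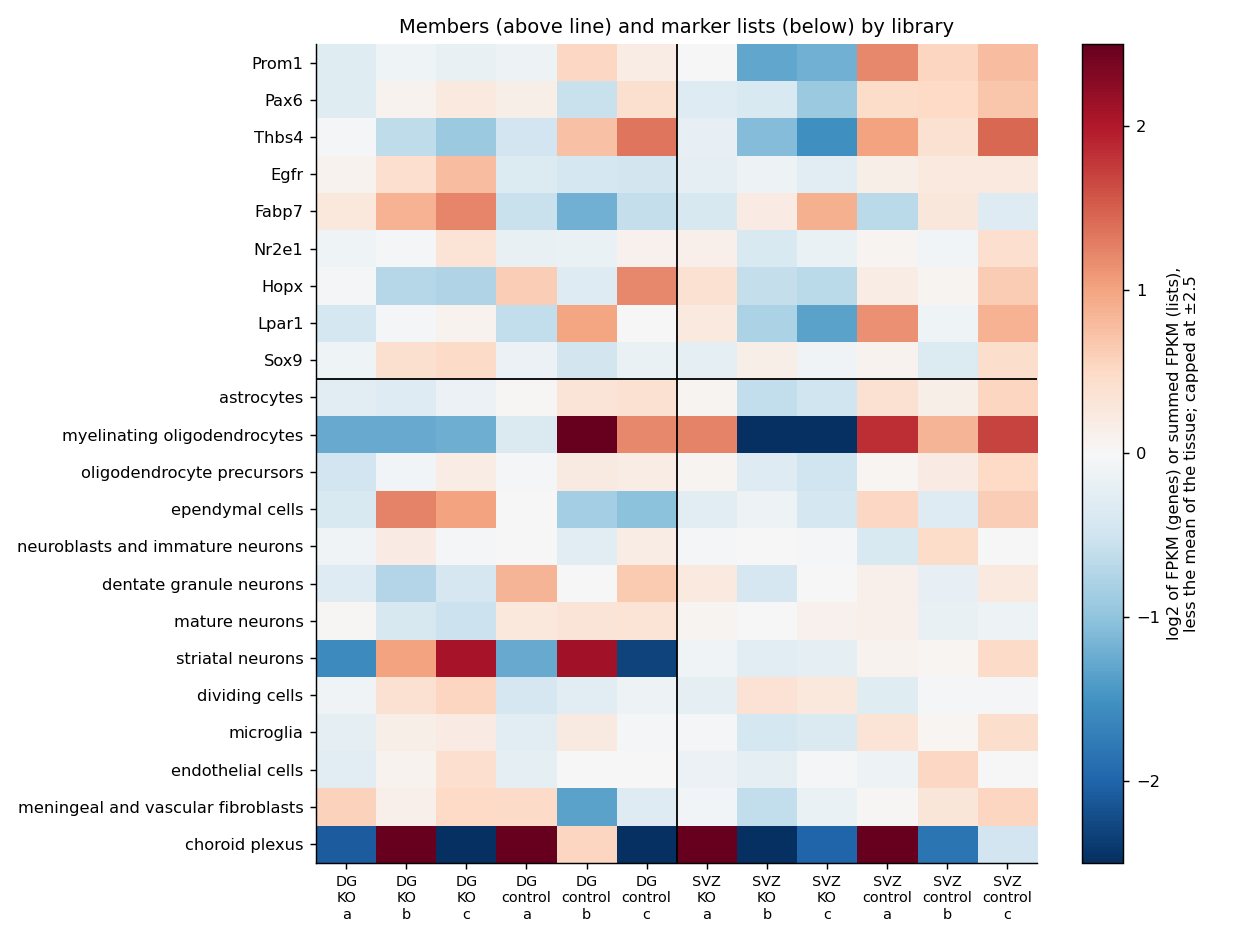
Level of each gene (above the line) and summed level of each marker list (below it) in the 12 libraries, as log2 FPKM less the mean of its tissue, capped at ±2.5; KO libraries stand left of controls in each tissue. The library labelled SVZ KO a shows control-like myelin, and the 3 DG KO libraries share low myelin, while striatal markers differ between libraries of both DG groups.

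The KO effects of the 2 tissues were compared in a limma model of all 4 groups, as the SVZ log2 fold change minus the DG one, for the 8 genes tested in both. The difference was negative for 7 of the 8 genes, the exception being Hopx at 0.40, while it was positive for 41.7% of all genes tested. Its median was -0.77 over the 8 genes and -0.06 over all genes. The Hopx difference ranged from 0.07 without DG control c to 0.80 without DG control b. None of the 8 passed the limma threshold, which 0.0335% of 14922 genes did, while 4 had an unadjusted limma p under 0.05, against 15.9% of all genes. Egfr had the lowest p, with a difference of -0.82 (SE 0.16, limma adjusted p = 0.080), every DG KO library lying above its controls and every SVZ KO library below its controls. Differences were -0.95 (SE 0.31, limma adjusted p = 0.18) for Prom1, -0.73 (SE 0.23, limma adjusted p = 0.17) for Pax6 and -1.09 (SE 0.49, limma adjusted p = 0.31) for Fabp7. Without SVZ KO a none of the 8 passed either. The differences were then -1.22 for Prom1 (limma adjusted p = 0.051), -0.81 for Egfr (limma adjusted p = 0.068), -0.79 for Pax6 (limma adjusted p = 0.14), -0.78 for Fabp7 (limma adjusted p = 0.40) and 0.09 for Hopx (limma adjusted p = 0.94). The libraries differed in composition too. Striatal markers varied among DG libraries of the same genotype, and choroid plexus markers varied within genotypes of both tissues. The latter summed to 22.3, 1990 and 11.4 FPKM in DG KO and to 622, 138 and 16.4 FPKM in DG control. In the SVZ they summed to 156, 1.97 and 3.08 FPKM in KO and to 121, 3.48 and 8.86 FPKM in control. The part of library composition in the differences was not tested.

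**Figure D4:**
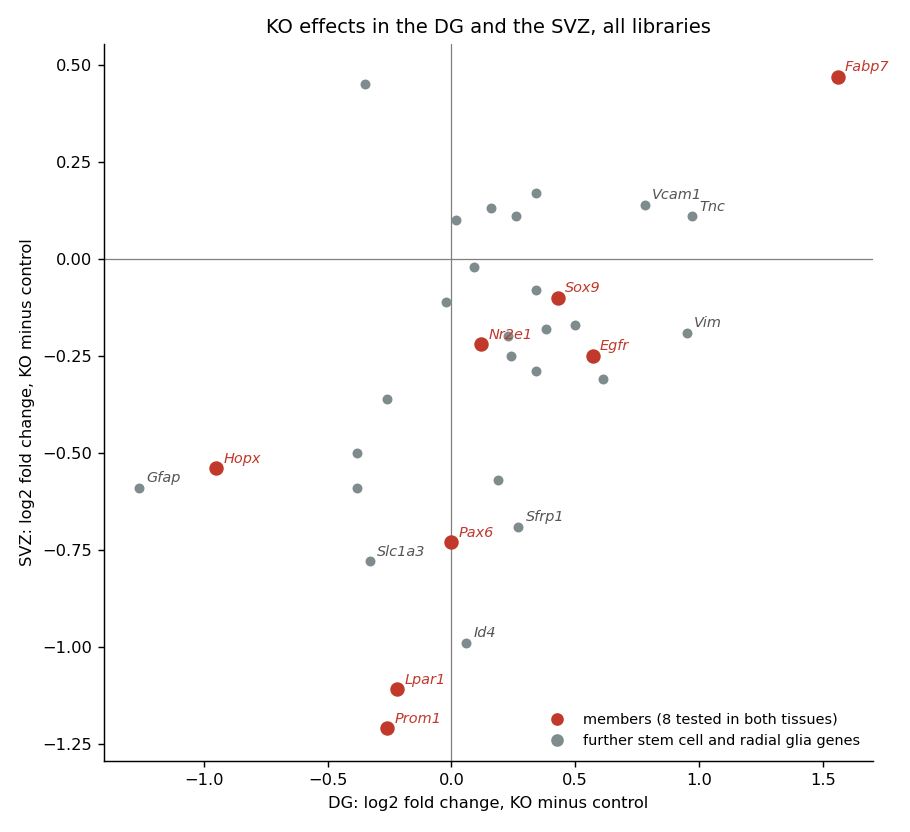
Log2 fold change, KO minus control, in the DG (x axis) and in the SVZ with all libraries (y axis) for the 8 genes tested in both tissues (red) and for the further stem cell and radial glia genes tested in both (grey). Egfr, Nr2e1 and Sox9 lie right of 0 and below 0, Sox9 only just below at -0.10 in the SVZ. Hopx, Prom1 and Lpar1 lie left of and below 0, and Fabp7 lies at 1.56 and 0.47.

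A further 28 genes of stem cells and radial glia, all with rows, give the surroundings of these results. In the DG all 28 were tested and none passed the limma threshold; 19 were positive, against 65.3% of all genes, and their median log2 fold change was 0.17. Groups did not overlap, with KO higher, in 7 of the 28, against 25.9% of all genes, so that neither count stands clear of the background. The lowest limma p-values belonged to Vcam1, an adhesion molecule of stem cells, at 0.78 on the log2 scale (adjusted p = 0.063), and Tnc, the matrix protein tenascin C, at 0.97 (adjusted p = 0.063). Vcam1 was at 17.4, 21.3 and 26.0 FPKM in the DG KO libraries and at 10.4, 13.1 and 12.7 FPKM in the DG controls. In the SVZ 25 of the 28 were tested and none passed with all libraries; 18 were negative, the median log2 fold change being -0.19. Without KO a, 6 of the 25 fell past the limma threshold, against 4.48% of all genes, and 0 rose, against 4.21%. The 6 included Slc1a3, the glutamate transporter of radial glia and astrocytes (-0.98, adjusted p = 0.011), Sfrp1, a secreted modulator of Wnt signalling (-0.82, adjusted p = 0.014), the tetraspanin Cd9 (-0.71, adjusted p = 0.019) and the cyclin Ccnd2 (-0.74, limma adjusted p = 0.023). Slc1a3 was at 108, 68.7 and 73.4 FPKM in the SVZ KO libraries and at 132, 129 and 163 FPKM in the SVZ controls, KO a nearest to the controls.

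Partners of the surface receptors were measured as well. Of all genes tested in the SVZ, 4.48% fell past the limma threshold without KO a. Of 5 EGF receptor partners and ligands with rows, 4 were tested in the DG and none passed; Erbb2, the co-receptor of Egfr, differed by 0.46 on the log2 scale (limma adjusted p = 0.065), with 1.14, 1.39 and 1.48 FPKM in KO and 0.802, 0.591 and 0.682 FPKM in control. In the SVZ all 5 were tested, none passed with all libraries, and 2 fell without KO a: the ligand Tgfa by 0.90 on the log2 scale (limma adjusted p = 0.0058) and the receptor Erbb3 by 1.23 (limma adjusted p = 0.038). Tgfa was at 9.31, 5.79 and 5.64 FPKM in the SVZ KO libraries and at 11.6, 11.2 and 11.7 FPKM in the SVZ controls. Of 8 lysophosphatidic acid genes with rows, none of the 6 tested in the DG passed, and 2 of the 5 tested in the SVZ fell without KO a. These were Enpp2, the enzyme autotaxin that makes lysophosphatidic acid (-2.06, limma adjusted p = 0.015), and the receptor Lpar6 (-0.53, limma adjusted p = 0.040). Enpp2 is also abundant in oligodendrocytes and choroid plexus, and it was at 102, 25.9 and 22.5 FPKM in the SVZ KO libraries and at 170, 75.4 and 87.4 FPKM in the SVZ controls. Among 8 paralogs with rows, none passed in the DG, where Thbs2 had the lowest p (0.44, limma adjusted p = 0.072), and in the SVZ 1 fell without KO a, the fatty acid-binding protein Fabp3 (-0.72, limma adjusted p = 0.024).

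The transcripts behind the sums did not all move alike. Prom1-203 carried 71.8% of Prom1 in the SVZ, with 1.21, 0.593 and 1.09 FPKM in KO and 5.70, 3.20 and 3.22 FPKM in control, so that KO a lay among the KO libraries for this transcript. The intermediate Prom1 level of KO a came with 1.27 FPKM of Prom1-207, against 0.00589 FPKM in KO b, 0.0191 FPKM in KO c and 0.260, 0.0242 and 0.720 FPKM in the controls. In the authors' deposited table Prom1-203 was 4.18 times lower in KO than in control in the SVZ, with a p-value of 4.16e-04 and a false discovery rate of 0.41. For Pax6 in the DG, the flat sum held transcripts of opposite sign. Pax6-202 was at 0.470, 1.25 and 0.953 FPKM in KO and at 0.365, 0.234 and 0.610 FPKM in control, a difference of 0.42 on the log2 scale (limma adjusted p = 0.29), and Pax6-204 at 0.208, 0.0803 and 0.177 FPKM in KO and at 0.717, 0.0793 and 1.02 FPKM in control. In the SVZ Pax6-204 was at 0.00144, 0.308 and 0.0600 FPKM in KO and at 0.576, 0.703 and 0.678 FPKM in control, all KO libraries lower. The larger Pax6-202 differed there by only -0.20 on the log2 scale (limma adjusted p = 0.70). Lpar1-202 was higher in every DG KO library (1.25, 1.27 and 1.15 FPKM) than in any DG control (0.334, 0.903 and 0.309 FPKM), the opposite sign to the gene sum. Hopx-202 carried 82.4% of Hopx in the DG and 83.3% in the SVZ. No transcript row of these genes passed the limma threshold, which 0.00319% of DG rows and 0.00335% of SVZ rows did, and the values of a transcript rest on the sharing of reads among isoforms.

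**Figure D5:**
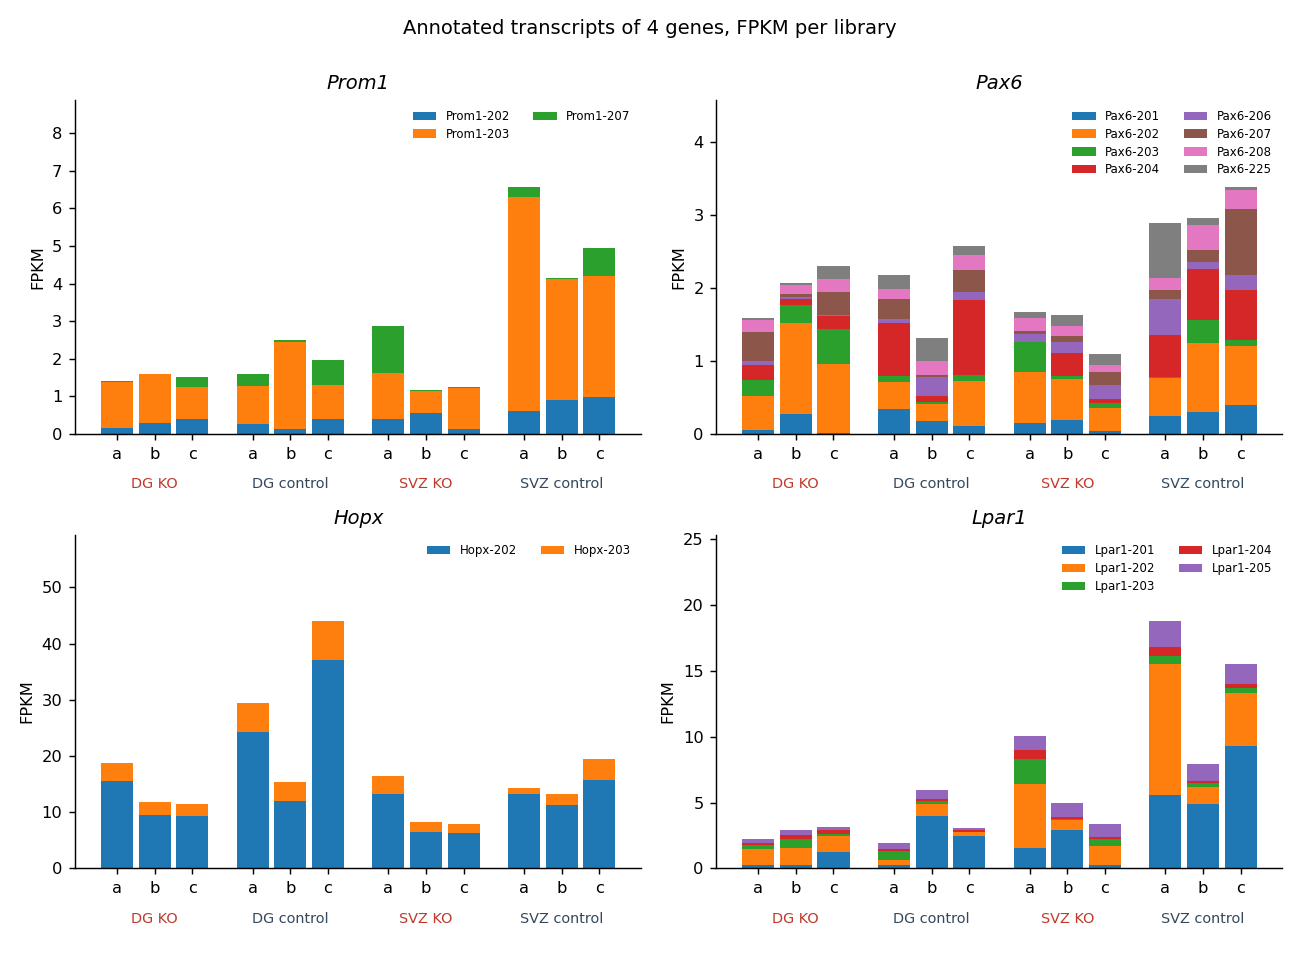
FPKM of the annotated transcripts of Prom1, Pax6, Hopx and Lpar1, stacked per library, with KO left of control in each tissue. Prom1-203 makes up most of the SVZ control bars of Prom1, and the makeup of Pax6 and Lpar1 differs between libraries of 1 group.

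In the authors' deposited table the main DG transcripts of Fabp7, Egfr, Sox9 and Hopx had the direction of their gene sums. That table rests on the same FPKM values, so this is no separate support. Folds in it are signed, negative where KO was higher and positive where control was higher. The largest DG transcripts of Pax6 and Lpar1 differed by more than their sums. Pax6-202 was higher in KO while its sum was flat, and Lpar1-201 was lower in KO, the direction of its sum. The fold was -2.21 for Pax6-202 (32.3% of Pax6) and 3.75 for Lpar1-201 (44.0% of Lpar1). In the authors' deposited table the fold was -3.01 for Fabp7-201 (p-value 0.0012, false discovery rate 0.12), -1.81 for Egfr-201 (p-value 0.0011, false discovery rate 0.12) and -1.44 for Sox9-201 (p-value 0.041, false discovery rate 0.32), and 2.13 for Hopx-202 (p-value 0.034, false discovery rate 0.30). For the SVZ the authors' deposited table gave folds of 3.57 for Thbs4-201 (p-value 0.0038, false discovery rate 0.45), 5.30 for Pax6-204 (p-value 0.019, false discovery rate 0.45) and 4.17 for Lpar1-201 (p-value 0.038). Pax6-204 carried 17.1% of Pax6 in the SVZ. For the larger Pax6-202 (28.3%) the authors' deposited table gave a fold of 1.44 (p-value 0.28), and for Pax6-203 one of -1.24. In the authors' deposited table no transcript of these genes had a false discovery rate under 0.05, as 0.0321% of DG rows and 0.00247% of SVZ rows did.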

How the data were processed

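RNA-seq libraries of DG and SVZ tissue were made from polyA-selected RNA, per the labels' protocols, 3 in each of 4 groups. The submitters' processing notes name CASAVA 1.8.4, TopHat2 2.1.0, Partek and GRCm38 (mm10), without roles. The authors deposited FPKM values of 40483 transcripts a tissue, TMM-scaled per the file names, and their own tables of p-values, step-up FDR and signed fold changes (control over KO) per the file headers. Group columns carry no replicate number, and 0 per-sample columns were left unused.

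Rows were joined by gene name and group means (relative difference 0.0001) to obtain transcript names and summed to 17990 genes. Genes averaging 0.5 FPKM or more were tested as log2(FPKM + 1), which understates changes of low genes, with limma 3.58.1 (R 4.3.3, intensity trend in eBayes) and Benjamini-Hochberg adjustment over all genes, threshold 0.05. The test was tried on simulated data. Ratios are of mean FPKM. Depth was read from the steps of low FPKM values, too few of which fell on whole reads (54.5% to 62.3% within 0.1) to recover counts, so read numbers are approximate and no count model was fitted. Positions are from GENCODE on GRCm38. Promoter windows are from RefSeq (GRCm38.p6), where 8 of the 10 genes matched. Strandedness: not given in the sources used here. Antisense reads, as at Pax6, may be included. Alternatives were the pseudocount (0.1), the filter (none, or 2 FPKM), median centring, quantile normalization, 1 fit of all groups, no trend, each library left out, and, added after seeing the data, sex as a term and the SVZ without KO a under the other settings.

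The genes and lists were chosen with earlier results of these data known. All 9 genes with rows were described. From other lists, only some genes past the threshold or of lowest p were named, at most 4 a list and tissue. Several cell type lists are given as sums alone. Vcam1, Slc1a3, Tgfa and Enpp2 are examples of these, and Prox1, Calb1, Aldh1l1 and the transcripts shown in detail were picked after their values were seen.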

Additional observations from a re-analysis of the deposited data

Results flagged for a closer look

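Egfr was flagged because its KO effects in the tissues had opposite directions: all 3 DG KO libraries lay above all DG controls, and all 3 SVZ KO libraries lay below all SVZ controls. Of all genes, 25.9% were likewise apart in the DG with KO higher, and 7.78% in the SVZ with KO lower. The share of all genes with both was not counted, so Egfr cannot be called unusual in this. The difference of the KO effects, SVZ minus DG, was -0.82 on the log2 scale (SE 0.16), with an unadjusted limma p of 3.41e-04 and a limma adjusted p of 0.080 over all genes tested in both tissues. Leaving out 1 library at a time gave differences of -0.94 to -0.69 and limma adjusted p-values of 0.025 to 0.20, with the lowest p reached without DG KO a. The fit without DG KO a called 258 genes, against 5 with all libraries.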

How the results depend on the processing

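No paired analysis was possible because the table columns carry no replicate numbers. Without SVZ KO b or c in place of KO a, 0 of the 9 genes passed in the SVZ, so that over the libraries left out singly the count was 0 to 5, and that of all SVZ genes 0 to 1317. With KO a out, further libraries left out gave 0 to 5 of the 9 and 103 to 1369 of all genes, and 4 of the 9 passed with a 2 FPKM minimum, which drops Thbs4, or with sex as a term. In the DG the count of genes called over all genes was 108, and became 241 with the 2 FPKM minimum, 296 in 1 fit of all 4 groups, where 2 of the stem cell genes passed, 3 with sex as a term and 0 to 3 with a library left out, when 0 of the stem cell genes passed. In the SVZ the count with sex as a term was 0. Because control a was the only female SVZ library, that term gave the same fold changes as leaving control a out and is no separate check. For the difference of KO effects the 5 genes called became 2 with a pseudocount of 0.1, 13 with the 2 FPKM minimum, 9 with median centring, 9 without the trend and 0 to 258 with a library left out, and 0 to 1 of the stem cell genes passed (Egfr without DG KO a). Signs of values near 0 or of single transcripts turned. With 1 library left out, the log2 fold change ranged from -0.18 to 0.13 for DG Pax6, from -0.50 to 0.12 for DG Lpar1 and from -0.27 to 0.06 for SVZ Sox9. DG Pax6 was 0.01 with a pseudocount of 0.1, 0.05 without control a, 0.13 without control c, 0.10 without KO a and 0.42 for Pax6-202. DG Lpar1 was 0.12 without control b and 0.58 for Lpar1-202. In the SVZ, Hopx-203 was 0.00, Lpar1-203 was 0.27, and Sox9 was 0.06 without control c. The cause was not tested. Of 359 values of single genes under other settings, 345 kept their direction and side of the threshold, 8 newly passed it and 6 turned, and of 26 transcript values 22 kept both and 4 turned. Depth limits Thbs4 most, at 28 to 477 reads a library.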

Other observations

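For each gene, the gene most like it was sought among 8604 genes with at least 5 FPKM in each tissue, by Pearson's r of log2(FPKM + 1) less the tissue mean. The 12 libraries share genotype differences, tissue makeup and depth, so these values are descriptions. Prom1 was most like Svip (0.97), Lpar1 like Plekhb1 (0.98), Thbs4 like Glns-ps1 (0.98), Hopx like Lcat (0.96), Fabp7 like Prpsap1 (0.96), Egfr like Pole3 (0.97), Sox9 like Rps19-ps6 (0.93), Nr2e1 like Tlcd1 (0.94) and Pax6 like Idh1 (0.89).

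Gfap, the intermediate filament of astrocytes and adult neural stem cells, and Vim, that of radial glia, stood on opposite sides in the DG. Gfap was at 24.3, 30.1 and 27.2 FPKM in the DG KO libraries and at 61.9, 46.7 and 101 FPKM in the DG controls, or -1.26 on the log2 scale (limma adjusted p = 0.064). Vim was at 22.5, 37.2 and 40.3 FPKM in the DG KO libraries and at 17.9, 14.4 and 16.9 FPKM in the DG controls, or 0.95 on the log2 scale (limma adjusted p = 0.071). The groups did not overlap for either gene, and both were named after their values were seen.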
